A study of Mus musculus with 8 samples.

Results

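The complement genes described here are 7 of the 27179 genes counted by RNA-seq in 4 mouse mammary tumour lines, chosen by matching the Entrez identifiers of the count table to the symbols C1ra, C1s1, C3, Cfb, Serping1, Cd59a and Cd55. The rule used no measured value. The lines were 4T1.2, 4T1, 66cl4 (spelled 66c14 in the labels) and 67NR, with 2 biological replicates of each and no treatment, grown as cell lines in medium with serum. The study used them to look for genes by which tumour cells could change their surroundings, and described 66cl4 and 67NR as having a lower metastatic potential than 4T1 and 4T1.2. The lines are isogenic, of BALB/c origin, and each metastatic class is represented by 2 lines, so a difference between classes and a difference between particular lines cannot be told apart. The sources used here do not say how the 2 replicates of a line were separated, and p-values measure the spread between these libraries.

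Complement is a chain of plasma and surface proteins that marks cells for removal or punctures their membranes. The classical route starts when C1q binds a target and activates the serine proteases C1r and C1s, the lectin route uses the related MASP proteases, and the alternative route builds on factor B, and all of them converge on the cleavage of C3. Host cells restrain the cascade with C1 inhibitor, which inactivates C1r and C1s, with CD55, which takes apart the enzymes that cleave C3, and with CD59, which blocks the membrane attack complex. The liver makes most plasma complement, and fibroblasts, macrophages and tumour cells can make C1r, C1s, C3 and factor B locally.

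The 4 lines differed in which of these transcripts they held. C1ra and C1s1, the 2 classical proteases, were high in 66cl4 and 67NR and low in 4T1.2 and 4T1. C3 was high in 67NR, Cfb was higher in 4T1.2 and 4T1 than in the other lines, and the regulators Serping1 and Cd59a were highest in 66cl4 at low levels. Cd55 had no count in any library. In the comparison of the mean of 4T1.2 and 4T1 with the mean of 66cl4 and 67NR, called the pooled comparison below, 1 of the 6 genes tested was higher in 4T1.2 and 4T1 (Cfb), 3 were lower (C1ra, C1s1 and C3) and 2 did not pass (Cd59a and Serping1), with a threshold of 0.05 on the Benjamini-Hochberg adjusted p over 13925 genes in edgeR's quasi-likelihood test. Over all genes tested, 38.1% were called higher and 38.6% lower in the same comparison, so a call by itself was common between these lines. Cd59a passed the filter on low counts only through 66cl4, the line in which it was high. Serping1 passed it through 66cl4 and 4T1, and Cd55 did not pass it.

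Levels are given as CPM, counts scaled to the TMM effective library size, and as RPKM, the CPM per kilobase of deposited gene length, where genes are compared with each other. Libraries held 37159840 to 66269681 counts, and 3 counts in a library corresponded to 0.0486 to 0.0819 CPM. The correlation of log2 CPM between the 2 libraries of a line was 0.995 to 0.996, against 0.779 to 0.985 between lines. Of the defining markers of cells that could carry complement transcripts, Ptprc had 0 to 2 counts per library, and Adgre1, Tyrobp and Alb had 0 in all 8, while Krt8, an epithelial keratin, had at least 16981. The leucocyte list as a whole (10 genes) summed to 72.3 to 84.3 CPM in 4T1, 68.1 to 76.6 in 4T1.2, 60.0 to 63.6 in 66cl4 and 41.7 to 42.3 in 67NR. Cd14 made up most of it except in 67NR, where Lyz2 had 22.6 CPM and Cd14 15.7. The 6 epithelial genes summed to 2188 to 2892 CPM in 4T1, 1475 to 1734 in 4T1.2, 718 to 719.6 in 66cl4 and 464 to 529 in 67NR, and the 5 endothelial genes to 0.335 to 3.70 over all libraries. The 8 mesenchymal genes, most of whose sum was Vim, gave 5545 to 7469 CPM in 4T1, 5489 to 6608 in 4T1.2, 4653 to 5574 in 66cl4 and 3166 to 3224 in 67NR. Epcam, an epithelial adhesion gene, had 0 to 1 counts per library in 66cl4 and 67NR and 778 to 2378 in 4T1.2 and 4T1. In RNA from a whole culture, fewer cells that express a gene and less RNA per cell cannot be told apart.

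**Figure D1:**
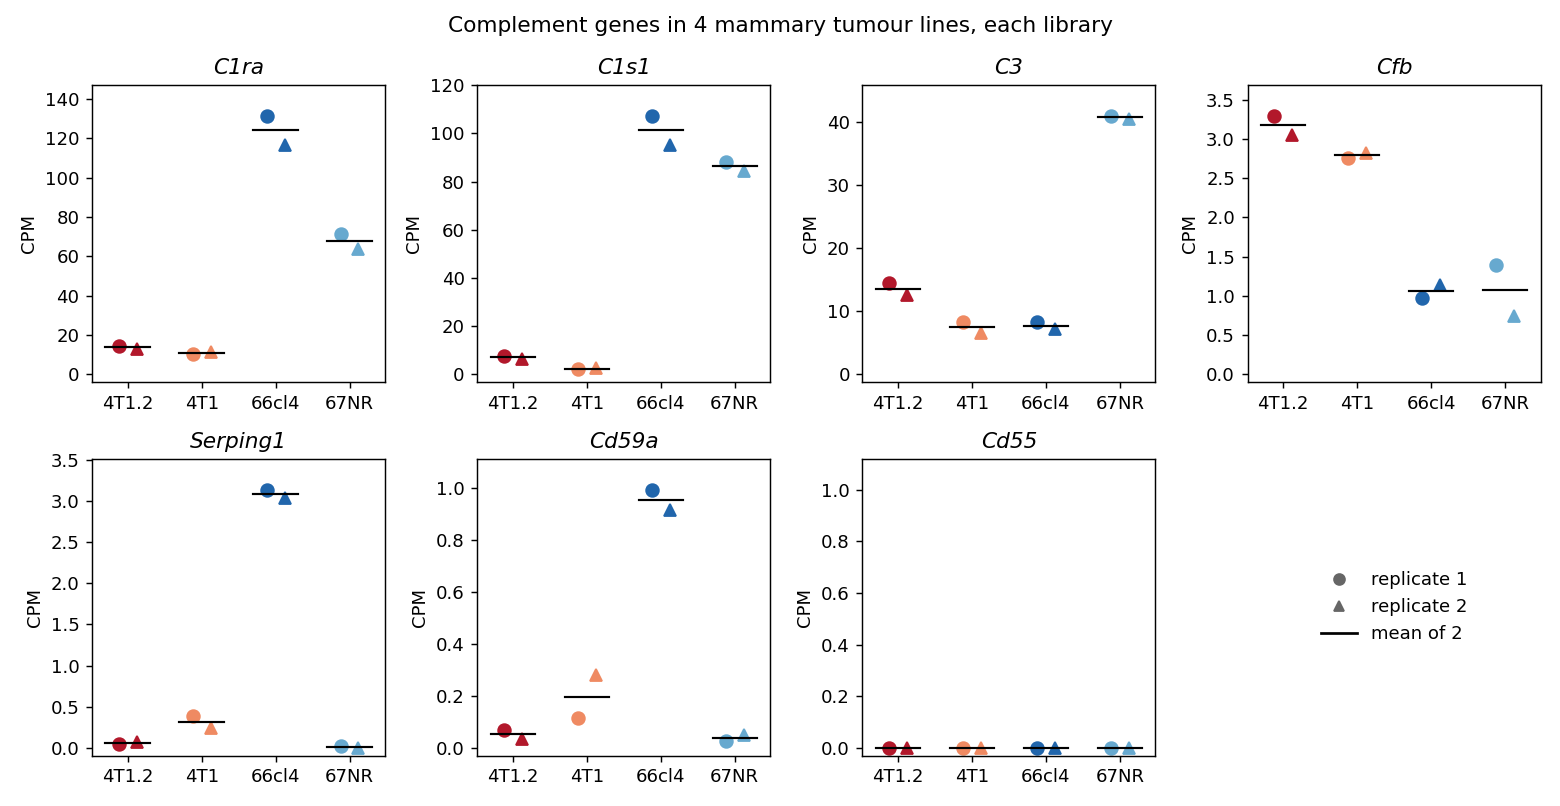
Each panel plots the CPM of 1 gene (vertical axis, its own linear scale) in the 2 libraries of each of 4T1.2, 4T1, 66cl4 and 67NR, with circles for replicate 1, triangles for replicate 2 and a bar for their mean. C1ra and C1s1 stood highest in 66cl4 and 67NR, C3 in 67NR, Cfb in 4T1.2 and 4T1, Serping1 and Cd59a in 66cl4, and Cd55 lay at 0 throughout.

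C1ra (Entrez 50909) lies on chromosome 6 at 124512621 to 124523440 on the plus strand, and C1s1 (Entrez 50908) at 124530344 to 124542392 on the minus strand (RefSeq genes, GRCm38). Mice carry duplicates of both, C1rb and C1s2, and with C1rl the 5 genes span 142.973 kb. The 250 bases before a listed start of C1ra, C1s1 and C3 are shown because C1ra and C1s1 differed between lines in the same direction and C3 did not follow them. They come from a table of RefSeq promoters on GRCm38.p6, which held entries for 5 of the 7 genes, and not for Cfb and Serping1. Positions below are counted from the start that this table uses, which for C1s1, Cd59a and Cd55 lies inside the outer bounds of the gene given here, so that their windows overlap the gene. The windows are chr6:124512371-124512620 (plus strand) for C1ra, chr6:124542360-124542609 (minus strand) for the upstream of the 2 starts listed for C1s1, and chr17:57228137-57228386 (minus strand) for C3. Capitals mark matches to TTNNGNAA on either strand, a form of the motif bound by C/EBP factors, which are known activators of acute-phase genes.
C1ra: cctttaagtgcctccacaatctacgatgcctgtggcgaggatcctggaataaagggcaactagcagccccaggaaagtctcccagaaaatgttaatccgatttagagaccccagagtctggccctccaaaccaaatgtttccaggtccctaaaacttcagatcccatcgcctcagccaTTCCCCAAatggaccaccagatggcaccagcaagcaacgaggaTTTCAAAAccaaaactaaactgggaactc
C1s1: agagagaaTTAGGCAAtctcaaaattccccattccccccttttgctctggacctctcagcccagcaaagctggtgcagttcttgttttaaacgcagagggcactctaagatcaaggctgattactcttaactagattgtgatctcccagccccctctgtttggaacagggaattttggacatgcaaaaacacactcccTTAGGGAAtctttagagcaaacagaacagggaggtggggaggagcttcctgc
C3: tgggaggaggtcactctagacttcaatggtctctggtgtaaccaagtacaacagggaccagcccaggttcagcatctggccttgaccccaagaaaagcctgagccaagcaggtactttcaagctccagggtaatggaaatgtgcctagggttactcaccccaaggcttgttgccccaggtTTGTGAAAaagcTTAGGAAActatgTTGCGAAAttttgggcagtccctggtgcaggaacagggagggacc

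Among the 32851 mouse promoters of the same length, 36.8% held at least 1 such match, 10.9% at least 2 and 2.61% at least 3. C1ra had 2, on the minus strand, at -72 to -65 and -29 to -22 from its start, and C1s1 had 2, on the plus strand, at -242 to -235 and -52 to -45. The window of the other start listed for C1s1, not shown, held 1 match, on the plus strand at -90 to -83. C3 had 3, at -70 to -63, -58 to -51 and -45 to -38, the last of them on both strands. None of the 3 windows shown held TATAAA (12.4% of all promoters), TTCNNNGAA (a STAT motif, 7.02%), or a match to the NF-kappaB (4.11%) or the interferon response motif (2.98%), searched on both strands. The windows of the surface regulators held no C/EBP match. In the window of Cd55 (chr1:130462745-130462994, minus strand) there was 1 match to the NF-kappaB motif at -61 to -52, and in that of Cd59a (chr2:104095551-104095800, plus strand) 1 to the interferon response motif at -187 to -178. Cd55 had 8 CpG in its window, where 43.0% of all promoters had as many or more, and Cd59a had 0, as did 7.87% of all promoters. These matches describe letters and not sites in use.

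C1ra, which encodes the protease that activates C1s, had 131 and 117 CPM in the 2 libraries of 66cl4, 71.4 and 63.8 in 67NR, 14.3 and 12.9 in 4T1.2, and 10.2 and 11.5 in 4T1. The lowest library of 67NR stood above every library of 4T1.2 and 4T1, and 66cl4 above 67NR. The means were 124 ± 10.3, 67.6 ± 5.40, 13.6 ± 0.980 and 10.8 ± 0.898 CPM in this order (SD, n = 2). In the pooled comparison C1ra was 7.56-fold lower in 4T1.2 and 4T1 (log2 fold change -2.92, SE 0.08, adjusted p = 6.06e-10, edgeR). It was 1.84-fold higher in 66cl4 than in 67NR (log2 0.88, SE 0.11, adjusted p = 0.000149, edgeR). The difference between 4T1.2 and 4T1, 0.33 on the log2 scale with an SE of 0.11, did not pass (adjusted p = 0.0753, edgeR).

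C1s1, which encodes the protease that cleaves C4 and C2, had 107 and 95.2 CPM in 66cl4, 88.3 and 84.2 in 67NR, 7.45 and 6.42 in 4T1.2, and 1.98 and 2.37 in 4T1. The lines did not overlap, but 66cl4 and 67NR stood close together and far above the others. The means were 101 ± 8.54, 86.3 ± 2.90, 6.93 ± 0.727 and 2.18 ± 0.277 CPM in the same order of lines (SD, n = 2). C1s1 showed the largest pooled difference of the 6 genes tested, 24.1-fold lower in 4T1.2 and 4T1 (log2 fold change -4.59, SE 0.09, adjusted p = 7.27e-11, edgeR). Unlike C1ra it passed within the first pair, 3.20-fold higher in 4T1.2 than in 4T1 (log2 1.68, SE 0.14, adjusted p = 4.95e-05, edgeR), and did not pass within the second (66cl4 against 67NR, log2 0.23, SE 0.11, adjusted p = 0.114, edgeR). Whether the 2 genes differed from each other in these comparisons was not tested. Some mesenchymal markers followed the same split of lines and others did not. Of the 8 mesenchymal genes 5 were lower in 4T1.2 and 4T1 in the pooled comparison, 2 were higher (Vim and Pdgfra) and 1 was not tested. Over all genes tested, 38.6% were lower and 38.1% higher. Pdgfrb had 346 and 176 CPM by line mean in 66cl4 and 67NR against 1.44 and 3.07 in 4T1.2 and 4T1 (log2 -6.87, adjusted p = 3.03e-11, edgeR), and Col1a1 and Fn1 were lower, with log2 fold changes of -2.62 and -1.22 (adjusted p of at most 6.77e-05, edgeR). Dcn, also lower in the pooled comparison (log2 -0.91), had 24 to 26 counts in 4T1, inside the range of 16 to 26 in 66cl4 and 67NR. Col3a1 had 30 to 79 counts per library in 66cl4 and 67NR and 0 in the others, and Thy1 had at most 2 in any library. All 6 epithelial genes were higher in 4T1.2 and 4T1 in the pooled comparison (38.1% of all genes). The part of these differences between the lines in the values of C1ra and C1s1 was not tested.

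The 2 proteases form a complex, and their levels per length were compared within each library. The ratio of C1s1 to C1ra in RPKM was 1.14 and 1.22 in 67NR, 0.756 and 0.754 in 66cl4, 0.483 and 0.461 in 4T1.2, and 0.180 and 0.192 in 4T1. The 2 libraries of a line lay closer to each other than to those of any other line, and 67NR was the line in which C1s1 exceeded C1ra. Part of each gene cannot be told from its duplicate by sequence. Of the 75-base stretches in C1ra transcripts 42.4% also occur in another gene, chiefly C1rb, and of those in C1s1 24.8%, chiefly C1s2, and how the authors' counting divided such reads bears on the values of these 4 genes. In addition, 18.4% of the exon bases of C1s1 are overlapped by a gene on the opposite strand, Gm16567, which is no row of the count table used here. The sources used here do not state whether the counting used strand.

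The other genes of the same stretch of chromosome 6 had the same broad order of lines. C1rl, a C1r-like protease gene, had 57.1 ± 6.23 CPM in 66cl4, 23.6 ± 1.26 in 67NR, 8.27 ± 0.260 in 4T1.2 and 4.97 ± 0.990 in 4T1 (SD, n = 2), and shares none of its 75-base stretches with another gene. It was lower in 4T1.2 and 4T1 in the pooled comparison (log2 -2.52, adjusted p = 9.60e-09, edgeR), higher in 4T1.2 than in 4T1 (log2 0.74, adjusted p = 0.00760, edgeR) and higher in 66cl4 than in 67NR (log2 1.28, adjusted p = 6.19e-05, edgeR). C1rb was lower in 4T1.2 and 4T1 (log2 -2.87, adjusted p = 1.75e-09, edgeR), with counts that were 18.5% to 22.5% of those of C1ra in every library. C1s2 was lower likewise (log2 -4.60, adjusted p = 1.78e-08, edgeR), with 1.82% to 8.26% of the counts of C1s1, both extremes in 4T1, where C1s2 had 2 and 10 counts. What part reads of shared stretches had in these shares was not tested.

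**Figure D2:**
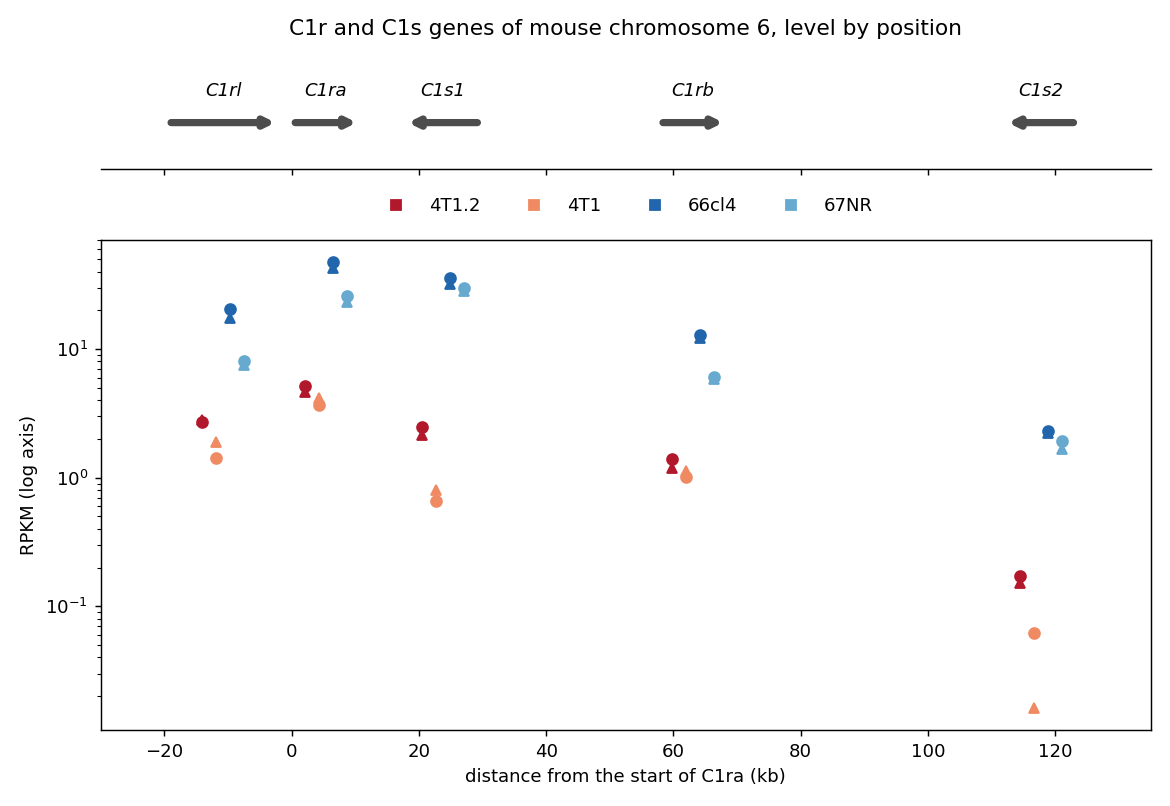
The upper panel draws the 5 C1r and C1s genes of chromosome 6 to scale by distance from the start of C1ra in kb, with arrows for the direction of transcription, and the lower panel plots their RPKM on a log axis in every library (circles replicate 1, triangles replicate 2, colours for the lines, points of a gene set apart sideways so that the lines can be told apart). At all 5 genes the libraries of 66cl4 and 67NR lay above those of 4T1.2 and 4T1, and in 66cl4 and 67NR RPKM was highest at C1ra and C1s1.

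C3 (Entrez 12266, chromosome 17, 57203967 to 57228136, minus strand), the central component whose cleavage tags a surface, had 41.0 and 40.6 CPM in 67NR, 14.5 and 12.5 in 4T1.2, 8.33 and 7.12 in 66cl4, and 8.32 and 6.60 in 4T1. The 67NR libraries stood above all others, those of 4T1.2 stood next, and those of 4T1 and 66cl4 overlapped. The means were 40.8 ± 0.30, 13.5 ± 1.39, 7.72 ± 0.855 and 7.46 ± 1.21 CPM in this order (SD, n = 2). The pooled difference was 1.77-fold lower in 4T1.2 and 4T1 (log2 -0.82, SE 0.10, adjusted p = 3.90e-05, edgeR), and it averaged over lines that went opposite ways. Against 67NR, C3 was lower in 4T1.2 (log2 -1.60, SE 0.14, adjusted p = 4.46e-06), in 4T1 (log2 -2.45, SE 0.15, adjusted p = 2.54e-07) and, 5.28-fold, in 66cl4 (log2 -2.40 for 66cl4 over 67NR, SE 0.15, adjusted p = 2.01e-06, all by edgeR). Against 66cl4, C3 was higher in 4T1.2 (log2 0.80, SE 0.14, adjusted p = 0.000699, edgeR), and 4T1 did not differ past the threshold (log2 -0.05, SE 0.15, adjusted p = 0.794, edgeR). 4T1.2 exceeded 4T1 1.80-fold (log2 0.85, SE 0.14, adjusted p = 0.00289, edgeR). None of the 75-base stretches of C3 occurs in another gene.

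Per length, the order of C3 and the C1 proteases differed by line. In 66cl4 C1ra had 44.9 RPKM, C1s1 33.9 and C3 1.5, whereas in 67NR C1s1 had 28.9, C1ra 24.5 and C3 7.95. In 4T1.2 the levels were 4.92 for C1ra, 2.63 for C3 and 2.32 for C1s1, and in 4T1 3.92 for C1ra, 1.45 for C3 and 0.729 for C1s1. The libraries of C3 and C1s1 overlapped in 4T1.2 and did not in 4T1.

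Cfb (Entrez 14962, chromosome 17, 34856374 to 34862514, minus strand) encodes factor B, which binds cleaved C3 and supplies the protease of the alternative route. It had 3.29 and 3.05 CPM in 4T1.2, 2.75 and 2.83 in 4T1, 1.39 and 0.746 in 67NR, and 0.972 and 1.14 in 66cl4. In this order the means were 3.17 ± 0.171, 2.79 ± 0.0532, 1.07 ± 0.457 and 1.06 ± 0.117 CPM (SD, n = 2). Every library of 4T1.2 and 4T1 stood above every library of 66cl4 and 67NR, and the 2 libraries of 67NR enclosed those of 66cl4. Cfb was the gene of the set that was higher in 4T1.2 and 4T1, 2.86-fold in the pooled comparison (log2 1.52, SE 0.18, adjusted p = 3.70e-05, edgeR). It did not pass between 4T1.2 and 4T1 (log2 0.19, SE 0.23, adjusted p = 0.636) or between 66cl4 and 67NR (log2 0.04, SE 0.29, adjusted p = 0.924, both by edgeR). Gm20547 holds 69.9% of its 75-base stretches and is an overlapping gene model on the same strand and no row of the count table used here, so the level of Cfb is uncertain. C2, the adjacent gene and the classical counterpart of factor B, had 1 to 6 counts per library. Other gene models, chiefly Gm20547 on the same strand, overlap 46.9% of the exon bases of C2, so its level is uncertain as well.

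**Figure D3:**
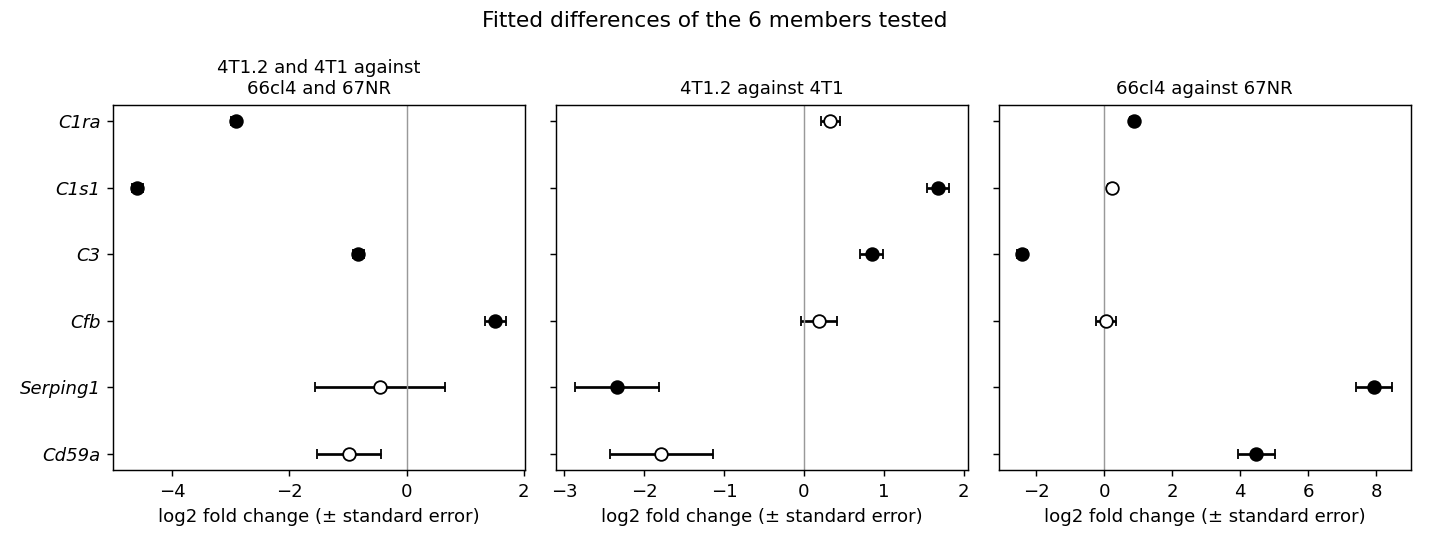
The 3 panels plot the fitted log2 fold change of the 6 genes tested (horizontal axis, bars show the standard error) for 4T1.2 and 4T1 against 66cl4 and 67NR, for 4T1.2 against 4T1, and for 66cl4 against 67NR, with filled circles for an adjusted p under 0.05. C1s1 lay at -4.59, C1ra at -2.92 and Cfb at 1.52 in the first panel, while Serping1 lay at 7.93 in the third with a value that rests on 1 count in 67NR.

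Serping1 (Entrez 12258, chromosome 2, 84765360 to 84775444, minus strand) encodes C1 inhibitor. It had 142 and 136 counts in 66cl4, 24 and 11 in 4T1, 3 and 4 in 4T1.2, and 1 and 0 in 67NR. In this order the levels were 3.09 ± 0.0721, 0.315 ± 0.110, 0.0617 ± 0.0125 and 0.0136 ± 0.0193 CPM (SD, n = 2). The 4 lines did not overlap in counts, with 66cl4 highest, 4T1 next, and 4T1.2 and 67NR near the level of 3 counts. Over the summed libraries 66cl4 exceeded 67NR by a ratio of 303, with an exact 95% interval for counting error of 54.0 to 12030, since 67NR had 1 count in all. It exceeded 4T1 by 9.47 (6.65 to 13.9) and 4T1.2 by 50 (24.0 to 126). In edgeR the adjusted p was 3.37e-06 against 67NR, 5.62e-06 against 4T1 and 7.48e-07 against 4T1.2. The fitted log2 fold change of 66cl4 over 67NR, 7.93 (SE 0.52), was 5.98 with a prior count of 2, 10.36 without replicate 1 of 67NR and 6.70 without replicate 2.

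Between the lines with few Serping1 counts, 4T1 exceeded 67NR by a ratio of 32.0 (5.39 to 1301, adjusted p = 0.000469, edgeR). 4T1 exceeded 4T1.2 by 5.28 (2.31 to 14.1, log2 -2.34 for 4T1.2 over 4T1, SE 0.53, adjusted p = 0.0130, edgeR). That call did not hold without replicate 1 of 4T1.2 (adjusted p = 0.0888), without its replicate 2 (0.0600) or without replicate 1 of 4T1 (0.0669, all by edgeR). 4T1.2 and 67NR did not differ past the threshold (ratio 6.07, 0.779 to 273, adjusted p = 0.0873, edgeR). Because 66cl4 and 67NR stood at opposite ends, the pooled log2 fold change was -0.45 with an SE of 1.10 (adjusted p = 0.726, edgeR), and it was 0.76 without replicate 1 of 67NR. The line with the highest C1ra and C1s1 thus also had the most C1 inhibitor transcript, while 67NR, at 86.3 CPM of C1s1, had 1 count in 2 libraries. Serpina1a, a serpin gene of the hepatocyte marker list, also stood highest in 66cl4, with 9.46 ± 1.55 CPM against 1.14 ± 0.166 in 67NR (SD, n = 2), and makes up nearly all of that list's sum of 8.39 to 10.6 CPM. The sum was 1.02 to 1.26 in 67NR, 0.377 to 0.475 in 4T1 and 0.0706 to 0.123 in 4T1.2. Of the other hepatocyte markers, Alb, Ttr and Fga were 0 in all libraries and Apoa1 had 0 to 1 counts. The part of such cells in the Serping1 values was not tested.

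Cd59a (Entrez 12509, chromosome 2, 104095753 to 104115410, plus strand) encodes the surface inhibitor of the membrane attack complex. It had 45 and 41 counts in 66cl4, 7 and 13 in 4T1, 4 and 2 in 4T1.2, and 1 and 3 in 67NR. The 66cl4 libraries, at 0.954 ± 0.0560 CPM (SD, n = 2), stood above all others, 4T1 had 0.198 ± 0.117, and the counts of 4T1.2 and 67NR overlapped at 0.0529 ± 0.0249 and 0.0380 ± 0.0151. 66cl4 exceeded 67NR by a ratio of 23.5 (8.84 to 88.1 for counting error, adjusted p = 0.000128), 4T1.2 by 18.1 (7.96 to 50.6, adjusted p = 4.41e-05) and 4T1 by 5.13 (3.12 to 8.81, adjusted p = 0.000469, all by edgeR). 4T1 exceeded 67NR by 4.58 (1.53 to 18.4, adjusted p = 0.0216, edgeR). Against 4T1.2 it stood 3.52-fold higher (1.36 to 10.7), which did not pass (adjusted p = 0.0854, edgeR) and did without replicate 1 of 4T1 (0.0270), while 4T1.2 and 67NR differed by a ratio of 1.30 (0.308 to 6.26, adjusted p = 0.738, edgeR). The pooled difference did not pass (log2 -0.98, SE 0.55, adjusted p = 0.129, edgeR). Cd59a was tested only because its counts in 66cl4 passed the filter, which limits the calls for that line. Its duplicate Cd59b had 0 to 2 counts per library.

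Cd55 (Entrez 13136, chromosome 1, 130429798 to 130465009, minus strand) encodes the surface regulator that dissociates the C3-cleaving enzymes, and its row was 0 in all 8 libraries. A count of 0 allows up to 3 counts, that is 0.0486 to 0.0819 CPM by library, for counting error alone, and whether the annotation or the counting rule bears on this row was not tested. Its duplicate Cd55b had 0 to 1 counts. Among the other membrane regulators, Cr1l (Crry), which in mice acts on C3 and C4 as CD55 and CD46 do, had 54.8 ± 3.66 CPM in 4T1, 45 ± 3.52 in 4T1.2, 43.0 ± 0.837 in 67NR and 39.4 ± 1.46 in 66cl4 (SD, n = 2). It was the most abundant of the membrane regulators, with a pooled log2 fold change of 0.27 (adjusted p = 0.00474, edgeR). Cd46 had 0.681 to 0.898 CPM by line mean and did not pass in the pooled comparison.

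Between single lines, the count of genes called varied with the pair. Of the 6 genes tested, 2 were higher (C3 and C1s1) and 1 was lower (Serping1) in 4T1.2 than in 4T1, where 9.37% of all genes tested were called higher and 9.92% lower. In 66cl4 against 67NR, 3 were higher (C1ra, Cd59a and Serping1) and 1 was lower (C3), with 22.2% and 22.4% of all genes. In 4T1.2 against 66cl4 all 6 passed, 2 higher (C3 and Cfb) and 4 lower, with 34.3% and 34.5% of all genes. In 4T1.2 against 67NR 1 was higher (Cfb) and 3 were lower (C3, C1ra and C1s1), with 33.7% and 34.1%. In 4T1 against 66cl4 1 was higher (Cfb) and 4 were lower (C1ra, C1s1, Cd59a and Serping1), with 34.9% and 35.2%. In 4T1 against 67NR 3 were higher (Cfb, Cd59a and Serping1) and 3 were lower (C3, C1ra and C1s1), with 33.8% and 34.4%. These comparisons share libraries, so their counts are not independent of each other. Cd59a was among the genes tested only through its counts in 66cl4.

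Of the 4 components C1ra, C1s1, C3 and Cfb, C1s1 had the largest folds between single lines. It was lower in 4T1 than in 66cl4 by a log2 fold change of -5.55 (SE 0.14, adjusted p = 8.05e-10) and than in 67NR by -5.32 (SE 0.14, adjusted p = 1.04e-09, both by edgeR). For 4T1.2 the values were -3.87 and -3.64 (SE 0.13 and 0.12). C1ra was lower in 4T1 by -3.52 against 66cl4 and -2.64 against 67NR (SE 0.12 for both), and in 4T1.2 by -3.19 and -2.31 (SE 0.12 and 0.11), each with an adjusted p of at most 6.65e-08 in edgeR. Cfb was higher in 4T1.2 by 1.59 against 66cl4 and 1.63 against 67NR and in 4T1 by 1.40 and 1.44 (SE 0.26 for all 4, adjusted p from 0.000337 to 0.000914, edgeR). The direction of C1ra, C1s1 and Cfb between the 2 pairs of lines was thus the same in each of these 4 comparisons, and that of C3, Serping1 and Cd59a was not.

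For each of the 6 genes tested, the 2 other genes with the most similar profile over the 4 line means were found by root mean square distance of centred log2 CPM, among 11809 or 11810 genes whose mean CPM reached 1. The nearest to C1ra were C1rb (distance 0.0744) and Per2 (0.0765), a repressor of the circadian clock, and to C1s1 C1s2 (0.103) and Slc24a3 (0.217), an ion exchanger. C1rb and C1s2 share sequence with C1ra and C1s1, and what part reads of shared stretches had in these ranks was not tested. The nearest to C3 were Thbs3 (0.168), a thrombospondin, and Podnl1 (0.292), and to Cfb Dtd1 (0.0322) and Atp5e (0.0505), a subunit of the mitochondrial ATP synthase. The nearest to Serping1 were F13a1 (0.499), the A chain of coagulation factor XIII, and Actr3b (0.952), and to Cd59a Ccdc80 (0.606) and 9130208D14Rik (0.620). Among the 6 genes themselves, Cd59a and Serping1 were closest (0.812), then C1ra and C1s1 (0.982), and C3 and Serping1 were farthest apart (3.10). With 4 points per profile these distances are descriptions.

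The other genes of the cascade were followed with a list of 52. In the pooled comparison 26 of them were tested, of which 7 were higher and 11 lower in 4T1.2 and 4T1 and 8 did not pass, against 38.1% and 38.6% of all genes tested. These counts are not read as a difference from all genes, since the list is small and some of its genes share sequence. The 26 genes tested had a median log2 fold change of -1.41, also with the 5 genes at 0 on one side set to their bound, against -0.01 over all genes tested. C1qb, Cd93, C7 and Cpn1 had no count in 4T1.2 and 4T1 and passed the filter only through 66cl4 or 67NR. Susd4 had no count in 66cl4 and 67NR and passed it through 4T1. Genes that passed only through the lines in which they were high limit the reading of this median and of these counts. Of the 26 that were not tested, 9 had no count in any library and none had more than 10 in any. In 4T1.2 against 4T1, 2 were higher and 4 lower (9.37% and 9.92% of all genes), and in 66cl4 against 67NR 10 were higher and 6 lower (22.2% and 22.4% of all genes).

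Among the 18 genes of classical and lectin initiation, 10 were tested, and 8 of these were lower and 1 higher in 4T1.2 and 4T1 (38.6% and 38.1% of all genes). The 8 include C1rb and C1s2, which share sequence with C1ra and C1s1, and C4a and C4b, which share sequence with each other. C1qb, C4b and Colec12 passed the filter on low counts only through 66cl4 and 67NR, the lines in which they were high. This limits any call for them and the count of genes called lower. C1qa, C1qb and C1qc, the subunits of the recognition molecule C1q, had at most 22 counts in any library, C4b, a target of C1s, at most 20, and its near copy C4a, which the gene table lists as a pseudogene, at most 37. In every library C1q, C2 and C4 genes thus had fewer counts than C1ra or C1s1. For C2 the limit from overlapping gene models, given with Cfb, holds here too. Masp1, a lectin route protease, had 164 ± 13.8 CPM in 66cl4, 104 ± 11.9 in 67NR, 24.5 ± 0.234 in 4T1 and 15 ± 1.35 in 4T1.2 (SD, n = 2), lower in 4T1.2 and 4T1 with a pooled log2 fold change of -2.77 (adjusted p = 9.31e-10, edgeR). Colec12, a scavenger collectin, had 2 to 8 counts per library in 4T1.2 and 4T1 and 12890 to 23993 in 66cl4 and 67NR (adjusted p = 1.77e-11, edgeR). Fcna, a ficolin that recognises surface sugars, was the gene that was higher (log2 1.2, adjusted p = 2.76e-05, edgeR). It stood highest in 4T1, at 8.88 ± 1.81 CPM, with 2.90 ± 0.467 in 67NR, 2.65 ± 0.0656 in 4T1.2 and 1.52 ± 0.00481 in 66cl4 (SD, n = 2). The mean of 4T1.2 thus lay below that of 67NR. Of the alternative route, Cfp, which stabilises the C3-cleaving enzyme, was lower in 4T1.2 and 4T1 (log2 -1.30, adjusted p = 1.02e-05, edgeR), opposite in direction to Cfb. Cfd, the protease that activates factor B, had 0 to 3 counts per library.

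Of the 7 terminal pathway genes 3 were tested and none passed in the pooled comparison. C8g was higher in 66cl4 than in 67NR (log2 0.81, adjusted p = 0.0277, edgeR) at 1.04 ± 0.0239 CPM (SD, n = 2). C7 was higher there as well (adjusted p = 0.000684, edgeR), with 24 to 29 counts per library in 66cl4 and 0 in the 6 others. It passed the filter on low counts only through 66cl4, the line in which it was high, which limits this call. Of the 10 fluid-phase regulators 5 were tested, 2 higher and 1 lower in the pooled comparison (38.1% and 38.6% of all genes). Clu (clusterin), which holds terminal complexes in solution, had 547 ± 5.19 CPM in 4T1.2, 504 ± 77.2 in 4T1, 134 ± 0.899 in 67NR and 43.3 ± 1.13 in 66cl4 (SD, n = 2; log2 2.79, adjusted p = 6.60e-10, edgeR). Clu was lower in 66cl4 than in 67NR (log2 -1.63, adjusted p = 3.86e-06, edgeR), the opposite of Serping1 and Cd59a, which stood highest in 66cl4.

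Of the 10 receptors 5 were tested, 3 higher and 1 lower in 4T1.2 and 4T1 (38.1% and 38.6% of all genes). Itgb2, the integrin subunit shared by complement receptors 3 and 4, had 348 ± 4.12 CPM in 4T1, 257 ± 17.5 in 4T1.2, 63.0 ± 0.892 in 67NR and 43.1 ± 0.340 in 66cl4 (SD, n = 2; log2 2.52, adjusted p = 2.09e-10, edgeR), while its partners Itgam and Itgax had at most 16 counts in any library. Other gene models, chiefly Gm49368 on the same strand, overlap 68.7% of the exon bases of Itgam, so its level is uncertain. C5ar2, a receptor for C5a, was higher in 4T1.2 and 4T1 (log2 4.08, adjusted p = 8.29e-08, edgeR), at 3.01 ± 0.395 and 2.77 ± 0.510 CPM against 0.0889 ± 0.0320 and 0.323 ± 0.0445 (SD, n = 2). Cd93 had no count in any of the 4 libraries of 4T1.2 and 4T1, 8.49 ± 1.27 CPM in 66cl4 and 1.07 ± 0.184 in 67NR (SD, n = 2, pooled adjusted p = 2.22e-07, edgeR). It passed the filter on low counts only through 66cl4 and 67NR, the lines in which it was high, which limits this call. C1qbp, a mitochondrial protein that also binds C1q, had 179 to 230 CPM by line mean and did not pass in the pooled comparison (log2 -0.02, adjusted p = 0.808, edgeR). Lyz2 (0 to 4 counts in 4T1.2 and 4T1, 791 to 1387 in 66cl4 and 67NR) also followed the split of lines seen for C1ra, C1s1, Masp1 and Colec12, and its part in the results was not tested.

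**Figure D4:**
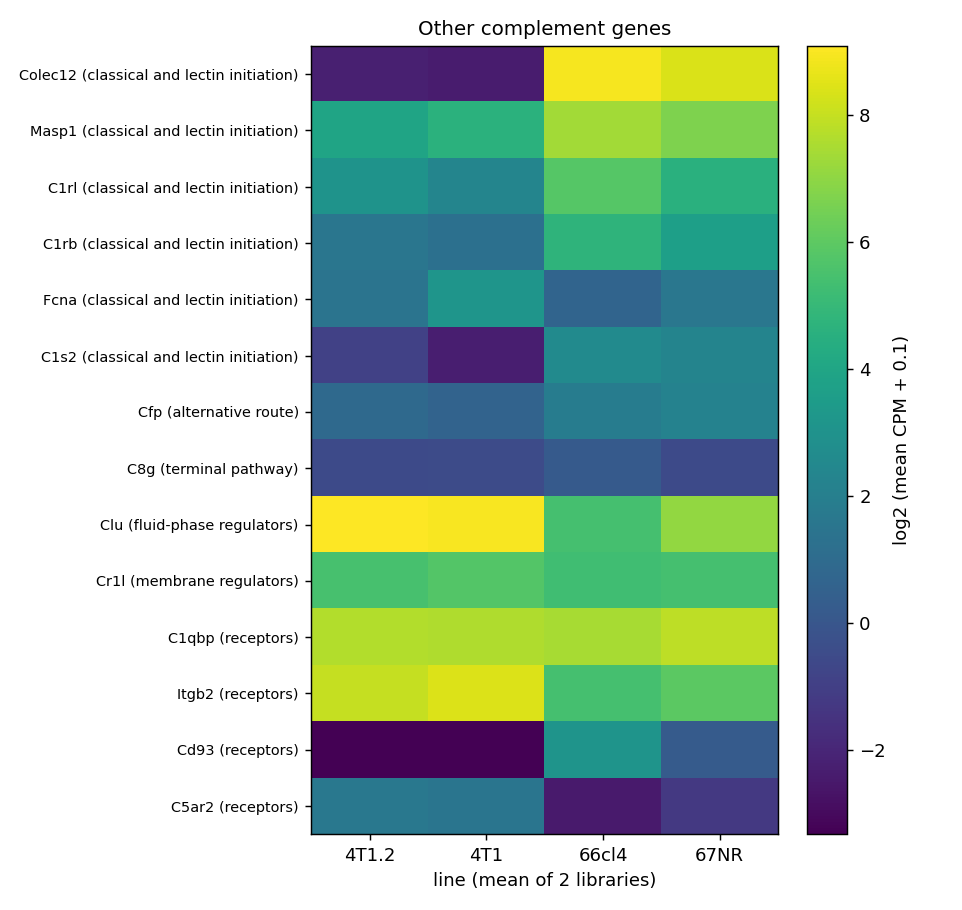
The heat map shows log2 of the mean CPM of 2 libraries plus 0.1 (colour) for 14 other complement genes chosen by rule, in rows by role, across the 4 lines. Colec12, Masp1 and the C1r and C1s duplicates were high in 66cl4 and 67NR, and Clu, Itgb2 and C5ar2 in 4T1.2 and 4T1.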

How the data were processed

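RNA was measured in 8 libraries (4 lines, 2 replicates each; TruSeq RNA v2, total RNA). The deposited values are raw counts per Entrez gene, made by the authors with featureCounts on reads aligned to mm10 with Rsubread; library depth was 37159840 to 66269681 counts, and the strand setting is not given in the sources used here. The 8 single-library tables equalled the table of the series. Of 27179 identifiers 25275 (93.0%) matched the RefSeq gene table (GRCm38). After filterByExpr (15269 genes), unmatched, predicted and ribosomal genes, with 5.33% to 7.93% of counts, were removed, which left 13925.

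Differences were tested in R 4.3.3 with edgeR 4.0.16 (limma 3.58.1) by its quasi-likelihood F-test (TMM, legacy fit, prior count 0.125) with a mean for each line over all 8 libraries, with 4 residual degrees of freedom and an adjusted p threshold of 0.05 (Benjamini-Hochberg over all genes). Counts of replicates differed beyond sampling noise in every line. Scripts were tested on simulated data. Intervals of ratios are exact conditional binomial intervals (95%) on summed counts scaled by effective library size, and like the 3-count bound they cover counting error only. Shared 75-base stretches and exon overlaps were computed from GENCODE transcripts on GRCm38. The alternatives, including DESeq2 1.42.0 and limma-voom, are given in the closing section.

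Named were the 7 genes, the 15 most abundant other complement genes past the threshold in the pooled comparison or within a pair of lines, and the 2 most similar genes per gene. 1 of these other complement genes is not reported here. C1qa, C1qb, C1qc, C2, C4a, C4b, C7, Cd46, Cd55b, Cd59b, Cfd, Cpn1, Itgam, Itgax, Susd4 and the markers were named outside this rule, with values seen. The 7 genes, the lists and the tests were chosen with earlier results of these data known. Figures were drawn with matplotlib 3.10.9.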

Additional observations from a re-analysis of the deposited data

How the results depend on the processing

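The counts of complement genes called in the 7 comparisons were recomputed under every alternative, and 136 recomputed counts stayed within 1.5 times the value reported and 3 did not. In the test against a log2 fold change of 1, 1 gene was called in 4T1.2 against 4T1 in place of 3, and the calls of C3 (pooled and within that pair) and of C1ra in 66cl4 against 67NR were lost, each with a fitted value inside that bound, with Serping1 within 4T1.2 against 4T1 also lost (adjusted p = 0.185, edgeR). Across the pairs this test called 5 in place of 6 in 4T1.2 against 66cl4, where the value of C3 lies inside the bound, 4 as before in 4T1.2 against 67NR, 4 in place of 5 in 4T1 against 66cl4 and 4 in place of 6 in 4T1 against 67NR. With at least 10 counts in every library, Cd59a and Serping1 were no longer tested, and 2 in place of 4 were called in 66cl4 against 67NR and 3 in place of 5 in 4T1 against 66cl4. Leaving out each library in turn gave 4 to 5 called in the pooled comparison, 2 to 3 in 4T1.2 against 4T1 and 4 in 66cl4 against 67NR. The pooled value of Serping1 ran from -1.07 to 0.76 and that of Cfb in 66cl4 against 67NR, which did not pass in any of these fits, from -0.40 to 0.50, with -0.07 without replicate 2 of 66cl4. Pooled Cd59a passed with limma-voom (log2 -1.06, adjusted p = 0.0336) and without replicate 2 of 4T1 (-1.33, adjusted p = 0.0468, edgeR). The cause of these changes was not tested. With a replicate block, 4 genes passed in the pooled comparison, 3 in 4T1.2 against 4T1 and 4 in 66cl4 against 67NR, as without it, and no call of the 6 genes tested changed. Replicate differences correlated between lines by -0.123 to 0.270, with the highest value between 4T1.2 and 4T1. These correlations cannot decide whether the replicate numbers pair the samples.

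Over all genes, the test against a log2 fold change of 1 called 1835 higher and 1787 lower in the pooled comparison in place of 5309 and 5377, 66 and 237 in 4T1.2 against 4T1 in place of 1305 and 1382, and 594 and 462 in 66cl4 against 67NR in place of 3098 and 3120. The 4 comparisons across the pairs fell in the same way, from between 4699 and 4900 to between 1574 and 1879 in each direction. In 4T1.2 against 4T1 the fit of these 4 libraries alone called 759 and 969, and the fits without replicate 1 or 2 of 4T1.2 called 602 and 771 or 635 and 793. Without replicate 2 of 67NR, 2044 and 2099 were called in 66cl4 against 67NR. Depth limits Serping1 and Cd59a most of the genes tested, since 4T1.2 and 67NR held at most 4 counts of each per library.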
